A study of Caenorhabditis elegans with 6 samples.

Results

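The 4 genes described here, vha-6, unc-32, vha-5 and vha-7, encode the alternative a subunits of the vacuolar H+-ATPase (V-ATPase) of Caenorhabditis elegans. They were taken by gene symbol from tables of 15796 loci, and each had 1 row whose label was the same in all 7 tables. The libraries came from total RNA of whole adult worms of the wild-type Bristol N2 strain. The tested worms were fed bacteria making double-stranded RNA against prx-5, which encodes the receptor that carries most enzymes into peroxisomes. The control worms were fed RNA against tag-208, listed in the tables as sorb-1. In both groups feeding began at the L4 larval stage, RNA was taken from their adult offspring, and 3 biological replicates were made. Control worms, too, were fed double-stranded RNA against a worm gene, and the effects of the 2 targets cannot be told apart here. Neither the number of animals per sample nor whether replicates were grown apart was given in the sources used here, so p-values measure the spread between these samples.

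The V-ATPase is a rotary proton pump that acidifies lysosomes, secretory vesicles and the spaces outside some epithelia. Its V1 sector in the cytosol splits ATP, and its V0 sector in the membrane carries protons through a ring of c subunits. The a subunit of V0 lies beside that ring, gives protons their path in and out of it, and helps to decide which membrane the pump serves. In C. elegans, vha-6 is known for acidifying the gut lumen from the apical membrane of the intestine. Some mutations of unc-32 make worms uncoordinated, and its product is prominent in neurons. The vha-5 product serves the excretory canal and the epidermis, where it sits at apical membranes, and vha-7 is known from the epidermis and the uterus.

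In the libraries labelled prx-5 RNAi, vha-6 rose about 5-fold, while unc-32, vha-5 and vha-7 did not pass the test. The level of vha-6 averaged 237 ± 99.2 FPKM (fragments counted, scaled for the length of the locus and the depth of sequencing) in prx-5 RNAi worms and 48.6 ± 10.5 FPKM in control worms (SD, n = 3 each), a 4.88-fold difference of the means. Per length, vha-6 was the most abundant a subunit transcript in prx-5 RNAi worms, whereas unc-32 was the most abundant in control worms. The level of vha-5 was lower in all 3 prx-5 RNAi libraries than in any control library, but the difference did not pass the test over all loci.

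Some facts of the whole series bear on these values. The number of reads per library was not given in the sources used here. Steps between low FPKM values gave depths relative to control replicate 1, with 0.767 (prx-5 replicate 1) as the lowest and 1.26 (prx-5 replicate 3) as the highest. Of 13347 loci tested with limma, 1160 were called at an adjusted p under 0.05, of which 86.2% were higher in prx-5 RNAi worms. That share was 73.1% with median-ratio scaling, 73.1% with the authors' own library constants and 69.0% with quantile normalization. The prx-5 gene had 14.9, 21.3 and 23.5 FPKM in libraries labelled prx-5 RNAi, against 4.48, 4.73 and 3.50 FPKM in the control libraries (log2 fold change 1.98 ± 0.22 SE, limma adjusted p = 0.00866). This direction is opposite to a knockdown of that RNA, so the directions given here are those of the labels. The sorb-1 gene had 13.6, 14.8 and 25.6 FPKM in prx-5 RNAi libraries, against 11.5, 12.9 and 6.96 FPKM in control libraries (limma adjusted p = 0.232).

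The loci were matched by gene identifier and position to the WBcel235 annotation. The gene vha-6 (WBGene00006915) lies on the minus strand of chromosome II from 11435210 to 11438452 and has 1 annotated transcript of 6 exons with a coding length of 2595 bases. The gene unc-32 (WBGene00006768) lies on the plus strand of chromosome III from 8905615 to 8911756 and has 6 transcripts, of which the longest coding one has 10 exons and 2715 coding bases. The tables give 1 value for all unc-32 splice forms together, so a change in their proportions cannot be seen here.

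The gene vha-5 (WBGene00006914) lies on the plus strand of chromosome IV from 8303968 to 8307371, and its longest coding transcript has 5 exons and 2619 coding bases. The gene vha-7 (WBGene00006916) lies on the plus strand of chromosome IV from 12640462 to 12650652, and its longest coding transcript has 25 exons and 3630 coding bases. The table loci covered between 99.7% and 100% of each of the 4 genes. The 3' end of vha-5 overlaps that of the minus-strand gene F35H10.10 by 57 bases, and the tables give both genes the same bounds, ending at 8312868. The row of F35H10.10 had 6.795, 8.81 and 10.6 FPKM in prx-5 RNAi libraries, against 6.07, 9.35 and 6.17 FPKM in control libraries. Strand was not stated for these libraries, so reads in those 57 bases cannot be told apart. The same holds for 144 bases that unc-32 shares with the minus-strand non-coding gene ZK637.20.

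Each library held all 4 a subunit transcripts at more than 20 FPKM. In the prx-5 RNAi libraries the order by mean level was vha-6, unc-32, vha-7 and vha-5. The ranges of vha-6 and unc-32, and of unc-32 and vha-7, were separate there, whereas those of vha-7 and vha-5 overlapped. In the control libraries the order was unc-32, vha-6, vha-5 and vha-7. There the range of unc-32 was separate from that of vha-6. The range of vha-6 overlapped that of vha-5, although vha-6 was above vha-5 in 3 of 3 control libraries. The means of vha-5 and vha-7 in control libraries, 39.0 and 38.3 FPKM, differed by less than the SD of either, 2.12 and 6.10.

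**Figure D1:**
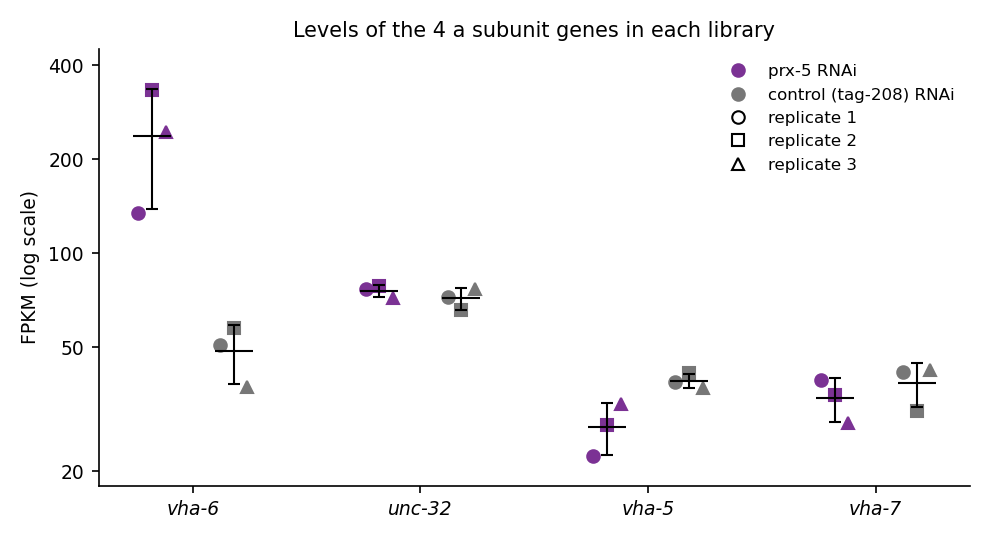
FPKM of the 4 a subunit genes in each library on a log axis, with prx-5 RNAi libraries (purple) to the left of control libraries (grey). Bars give the mean and SD of 3 libraries, and only vha-6 and vha-5 have groups that do not overlap.

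The intestinal gene vha-6 had 134, 332 and 245 FPKM in prx-5 RNAi replicates 1, 2 and 3, against 50.9, 57.7 and 37.2 FPKM in control replicates 1, 2 and 3. Every prx-5 RNAi library was above every control library, as in 21.2% of all tested loci, and prx-5 replicate 1 was the lowest of its group. The log2 fold change was 2.19 ± 0.34 (SE, 95% interval 1.39 to 3.00, on the log2(FPKM + 1) scale), with a limma adjusted p of 0.0162. It was the only a subunit gene of 4 called, where 8.69% of all tested loci were called, 7.49% higher and 1.20% lower. Of the 13347 tested loci, 1.56% had a larger log2 fold change. The call was lost when any of 4 single libraries was left out. The limma adjusted p was 0.0553 and 0.0644 without prx-5 replicates 2 and 3, and 0.0535 and 0.0774 without control replicates 1 and 3. In that order, those fits called 1.17%, 0.938%, 2.27% and 0.579% of their tested loci, against 8.69% in the main fit. The log2 fold change ranged from 1.90 to 2.55 over the 6 fits that left out 1 library. The authors' deposited table called vha-6 higher as well (log2 fold change 2.16, q = 0.00101).

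The excretory and epidermal gene vha-5 had 22.4, 28.3 and 32.8 FPKM in prx-5 RNAi replicates 1, 2 and 3, against 38.7, 41.3 and 37.0 FPKM in control replicates 1, 2 and 3. The highest prx-5 RNAi library was below the lowest control library, and prx-5 replicate 1 was the lowest of all. In 5.80% of all tested loci every prx-5 RNAi library was likewise below every control library. The means were 27.8 ± 5.22 FPKM in prx-5 RNAi worms and 39.0 ± 2.12 FPKM in control worms (SD, n = 3 each). The log2 fold change was -0.49 ± 0.17 (SE, 95% interval -0.90 to -0.08), with a limma unadjusted p of 0.0264 and an adjusted p of 0.157, so it did not pass. An unadjusted p under 0.05 was reached by 21.9% of tested loci, with a lower value in 4.44%. Sample weights, which give less weight to libraries that vary more, took vha-5 past the threshold (log2 fold change -0.42, adjusted p = 0.0209), in a fit that called 39.1% of all loci. The authors' deposited table called vha-5 lower (log2 fold change -0.62, q = 0.0434). That table called 14.4% of the same loci, 4.85% as lower.

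For unc-32 the values were 76.5, 78.6 and 71.9 FPKM in prx-5 RNAi replicates 1, 2 and 3, against 72.6, 65.6 and 77.0 FPKM in control replicates 1, 2 and 3. The groups overlapped, and the means were 75.7 ± 3.45 FPKM in prx-5 RNAi worms and 71.7 ± 5.76 FPKM in control worms (SD, n = 3 each). The log2 fold change was 0.08 ± 0.14 (SE, 95% interval -0.24 to 0.40, limma adjusted p = 0.770), and its sign turned with median-ratio scaling (-0.015) and with the authors' constants (-0.058). The interval leaves room for a change of up to 0.40 on the log2 scale.

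The epidermal and uterine gene vha-7 had 39.3, 35.04 and 28.5 FPKM in prx-5 RNAi replicates 1, 2 and 3, against 41.6, 31.3 and 42.1 FPKM in control replicates 1, 2 and 3. The groups overlapped here too. The means were 34.3 ± 5.41 FPKM in prx-5 RNAi worms and 38.3 ± 6.10 FPKM in control worms (SD, n = 3 each). The log2 fold change was -0.16 ± 0.19 (SE, 95% interval -0.60 to 0.29, limma adjusted p = 0.672). The authors' deposited table called neither unc-32 (q = 0.865) nor vha-7 (q = 0.319).

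Shares within a library do not change with the scaling of that library, so the makeup of the a subunit transcripts was compared as the share of each gene in the sum of the 4. The gene vha-6 made up 49.3%, 70.1% and 64.8% of the summed FPKM in prx-5 RNAi replicates 1, 2 and 3, against 24.99%, 29.5% and 19.2% in control replicates 1, 2 and 3. Its mean share was 61.4 ± 10.8% in prx-5 RNAi worms and 24.6 ± 5.13% in control worms (SD, n = 3 each), a difference of 36.8 percentage points. The mean share of unc-32 was 21.2 ± 6.06% in prx-5 RNAi worms and 36.3 ± 3.22% in control worms. For vha-5 it was 7.62 ± 1.45% in prx-5 RNAi worms and 19.7 ± 1.15% in control worms, and for vha-7 it was 9.78 ± 4.01% in prx-5 RNAi worms and 19.4 ± 3.03% in control worms. The groups did not overlap for any of the 4 shares. Each had a two-sided exact permutation p of 0.1 (0.1 after Benjamini-Hochberg adjustment over the 4 genes), the smallest that 3 against 3 libraries can give. The 4 shares add up to 100%, so they are not independent of each other.

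**Figure D2:**
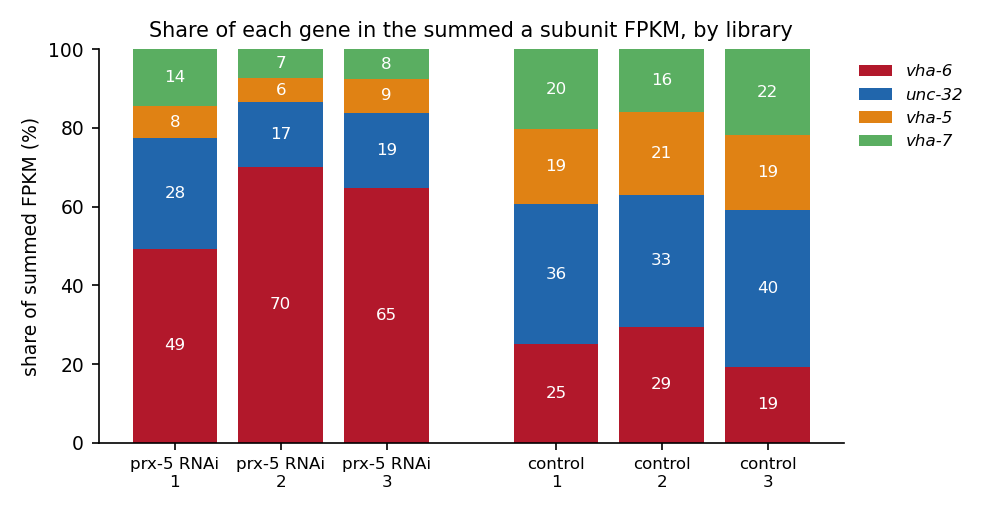
Share of each a subunit gene in the summed FPKM of the 4 genes in each library, in percent, with prx-5 RNAi libraries on the left and control libraries on the right. The vha-6 share lies between 49.3% and 70.1% in prx-5 RNAi libraries and between 19.2% and 29.5% in control libraries.

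The sum of the 4 genes was 273, 474 and 378 FPKM in prx-5 RNAi replicates 1, 2 and 3, against 204, 196 and 193 FPKM in control replicates 1, 2 and 3. Without vha-6 the sum was 138 ± 4.37 FPKM in prx-5 RNAi worms and 149 ± 9.62 FPKM in control worms (SD, n = 3 each), and the groups overlapped (two-sided exact permutation p = 0.3). Among unc-32, vha-5 and vha-7 alone, unc-32 held 55.4%, 55.4% and 53.96% in prx-5 RNAi replicates 1, 2 and 3, against 47.5%, 47.5% and 49.3% in control replicates 1, 2 and 3. The share of vha-5 in the same sum was 20.2 ± 4.22% in prx-5 RNAi worms and 26.3 ± 3.19% in control worms, and here the groups overlapped. The share of vha-7 was 24.8 ± 3.51% in prx-5 RNAi worms and 25.6 ± 2.56% in control worms. Permutation p-values of these 3 shares, exact and two-sided, were 0.1, 0.2 and 0.8 (0.3, 0.3 and 0.8 adjusted over the 3). These sums and the shares without vha-6 were added after the values had been seen.

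The 6 pairs of members were compared by the log2 ratio of their values within a library. The ratio of vha-6 to unc-32 averaged 1.54 ± 0.66 in prx-5 RNAi worms and -0.57 ± 0.43 in control worms (SD, n = 3 each), a difference of 2.11. The ratio of vha-6 to vha-5 averaged 2.97 ± 0.50 in prx-5 RNAi worms and 0.29 ± 0.25 in control worms, and that of vha-6 to vha-7 averaged 2.67 ± 0.80 in prx-5 RNAi worms and 0.32 ± 0.52 in control worms. The ratio of unc-32 to vha-5 averaged 1.43 ± 0.31 in prx-5 RNAi worms and 0.86 ± 0.19 in control worms. In these 4 pairs the groups did not overlap, with a two-sided exact permutation p of 0.1 (0.15 adjusted over the 6 pairs), the smallest the design allows.

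For the other pairs the groups overlapped. The ratio of unc-32 to vha-7 averaged 1.13 ± 0.18 in prx-5 RNAi worms and 0.90 ± 0.13 in control worms (exact permutation p = 0.2, 0.24 adjusted). That of vha-7 to vha-5 averaged 0.30 ± 0.49 in prx-5 RNAi worms and -0.04 ± 0.31 in control worms (exact permutation p = 0.4, 0.4 adjusted).

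The remaining measured subunits of the pump had smaller fold changes than vha-6. Of 16 listed genes of the V0 and V1 sectors other than the a subunits, 9 were measured in a row of their own. Limma called 0 of these 9 at an adjusted p under 0.05, 6 had an unadjusted p under 0.05, all higher, and the authors' deposited table called 4, all higher. An unadjusted p under 0.05 with a higher value was found in 17.5% of all tested loci, and the authors called 9.52% of them higher. The median log2 fold change of the 9 was 0.53, against 0.04 over all tested loci. In 7 of the 9 every prx-5 RNAi library was above every control library, as in 21.2% of all tested loci. Without prx-5 replicate 1, limma called 6 of the 9, in a fit that called 13.8% of all loci. These same genes were least raised in that library, so leaving it out is not a neutral choice. With any other single library left out, limma called 0 of the 9.

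By role, the V0 subunits came first. The d subunit gene vha-16, which links the ring to the V1 stalk, had 244 ± 62.0 FPKM in prx-5 RNAi worms and 146 ± 8.70 FPKM in control worms (log2 fold change 0.71 ± 0.22, limma adjusted p = 0.0986). The e subunit gene vha-17 had a log2 fold change of 0.38 ± 0.17. Of the V1 subunits, the ATP-binding B subunit gene vha-12 had 142, 286 and 251 FPKM in prx-5 RNAi replicates 1, 2 and 3, against 100.2, 138 and 142 FPKM in control replicates 1, 2 and 3. The lowest prx-5 RNAi library was barely above the highest control library, and its log2 fold change was 0.79 ± 0.29. The stalk genes vha-8 (E subunit), vha-11 (C subunit) and vha-14 (D subunit) had log2 fold changes of 0.67 ± 0.20, 0.53 ± 0.20 and 0.52 ± 0.17. The vha-11 locus also spans vha-3, which encodes a c subunit.

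The H subunit, which couples V1 to V0, is encoded by a pair of genes with unlike values. The gene vha-15 had 85.2, 158 and 134 FPKM in prx-5 RNAi replicates 1, 2 and 3, against 67.96, 74.98 and 68.1 FPKM in control replicates 1, 2 and 3, and the groups did not overlap (log2 fold change 0.78 ± 0.24, limma adjusted p = 0.0951). The gene vha-18 had 87.97, 65.5 and 55.7 FPKM in prx-5 RNAi replicates 1, 2 and 3, against 88.8, 66.9 and 91.4 FPKM in control replicates 1, 2 and 3, and the groups overlapped (log2 fold change -0.25 ± 0.22, limma adjusted p = 0.555). The difference between vha-15 and vha-18 was not tested. The B subunit gene spe-5, known for its part in making sperm, had a log2 fold change of 0.39 ± 0.23 at 9.97 ± 1.94 FPKM in prx-5 RNAi worms and 7.38 ± 1.55 FPKM in control worms. The ring genes vha-1, vha-2, vha-3 and vha-4 and the V1 genes vha-9 and vha-10 lay inside rows labelled with a neighbouring gene and were not separated from it. The row of vha-13 was left out because its label differed between tables.

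**Figure D3:**
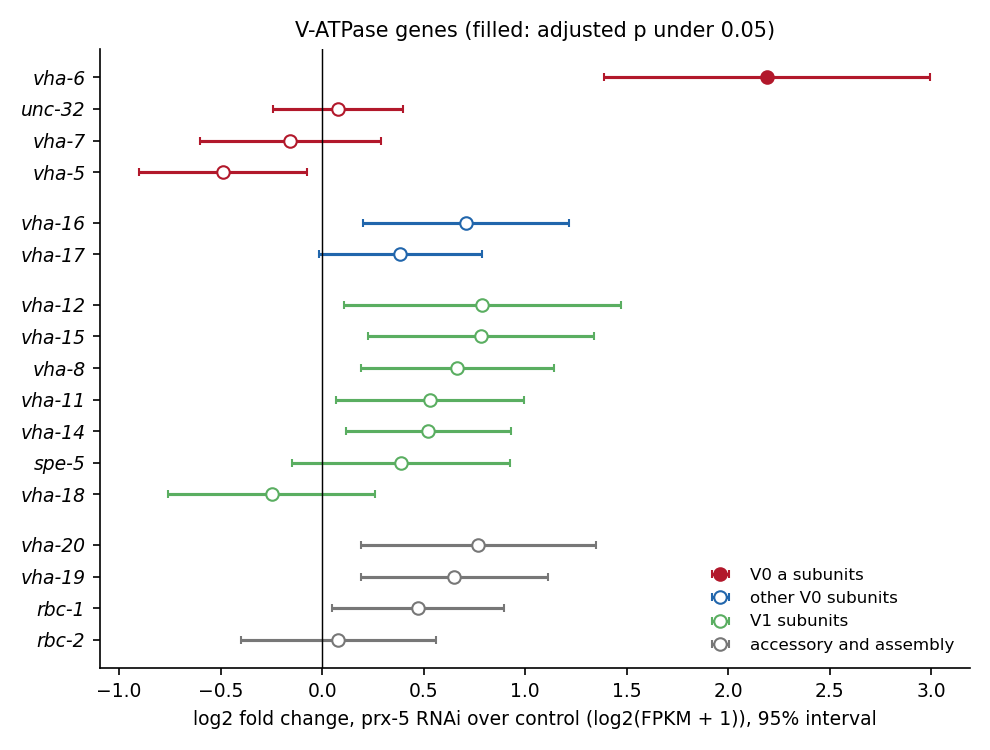
Log2 fold change of V-ATPase genes, prx-5 RNAi over control, on the log2(FPKM + 1) scale, with 95% intervals of the limma fit; filled points have an adjusted p under 0.05. Only vha-6 at 2.19 is filled. The lowest point is the a subunit gene vha-5 at -0.49, and the subunits other than the a subunits lie between -0.25 for vha-18 and 0.79 for vha-12.

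Set against the median of these 9 subunits in the same library, vha-6 had a log2 ratio of 0.04 ± 0.15 in prx-5 RNAi worms and -1.37 ± 0.48 in control worms (SD, n = 3 each). The difference was 1.41, and the groups did not overlap. That median level was the level of vha-12 in every library except prx-5 replicate 3, where it was that of vha-14. The log2 fold change of vha-12, 0.79 ± 0.29, was the largest of the 9, whose median was 0.53. The ratios to this median therefore rest largely on vha-12. The log2 ratio of vha-5 to that median was -2.93 ± 0.34 in prx-5 RNAi worms and -1.66 ± 0.28 in control worms, also without overlap. For unc-32 it was -1.50 ± 0.53 in prx-5 RNAi worms and -0.80 ± 0.31 in control worms, and for vha-7 it was -2.63 ± 0.69 in prx-5 RNAi worms and -1.69 ± 0.43 in control worms, with overlapping groups. The two-sided exact permutation p was 0.1 for vha-6 and vha-5 and 0.2 for unc-32 and vha-7 (0.2 for each after adjustment over the 4).

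Of 4 genes for accessory proteins and assembly factors, limma called 0 at an adjusted p under 0.05. Of the 4, 3 had an unadjusted p under 0.05 as higher, as did 17.5% of all tested loci. The authors' deposited table called 1 higher, vha-20, where it called 9.52% of all tested loci higher. The gene vha-20, related to the mammalian prorenin receptor, had 174 ± 50.1 FPKM in prx-5 RNAi worms and 98.8 ± 10.4 FPKM in control worms (log2 fold change 0.77 ± 0.24). The accessory gene vha-19 had a log2 fold change of 0.65 ± 0.20. The rabconnectin genes rbc-1 and rbc-2, whose relatives help V1 join V0, stood at 0.47 ± 0.18 and 0.08 ± 0.20, and a second locus of rbc-2 stood at -0.63 ± 0.48. Of 3 transcription factor genes, limma called 0 at an adjusted p under 0.05, 2 had an unadjusted p under 0.05 as higher (17.5% of all tested loci), and hlh-30 and nhr-31 were called higher in the authors' deposited table (9.52%). The lysosome regulator hlh-30 had 34.0 ± 7.80 FPKM in prx-5 RNAi worms and 18.3 ± 3.32 FPKM in control worms (log2 fold change 0.85 ± 0.23, limma adjusted p = 0.0668).

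The nuclear receptor gene nhr-31, known to act on V-ATPase genes in the excretory cell, had 17.6, 59.9 and 44.2 FPKM in prx-5 RNAi replicates 1, 2 and 3, against 11.7, 12.9 and 11.6 FPKM in control replicates 1, 2 and 3. Its groups did not overlap, and its limma adjusted p was 0.0692. The homeobox gene ceh-6 had 1.75 ± 0.71 FPKM in prx-5 RNAi worms and 0.883 ± 0.118 FPKM in control worms (adjusted p = 0.315). Of 12 lysosomal genes, limma called 4 higher and 0 lower, where it called 7.49% of all tested loci higher, and the median log2 fold change was 0.41. An unadjusted p under 0.05 as higher was found in 6 of the 12 (17.5% of all tested loci), and the authors' deposited table called 4 higher (9.52%). The protease genes asp-3 and asp-4 had the smallest p-values (log2 fold changes 2.36 ± 0.38 and 1.32 ± 0.23). The list was uneven, since scav-3, cup-5, ctns-1, laat-1 and clh-6 lay between -0.031 for laat-1 and -0.0015 for cup-5.

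Because each a subunit is used in certain tissues, the markers of those tissues are given beside it. In whole worms, more cells of a tissue and more RNA per cell cannot be told apart. Of 10 intestine markers other than vha-6, limma called 10 higher, where it called 7.49% of all tested loci higher. Their log2 fold changes lay between 1.07 and 2.53, with a median of 1.52, against 0.04 over all tested loci. Their summed level was between 2608 and 5572 FPKM in prx-5 RNAi libraries and between 804 and 1237 FPKM in control libraries. Only 1 of the 10, the protease gene asp-1 (2.53 ± 0.38), had a larger log2 fold change than vha-6. The gut transcription factor gene elt-7 had 1.47 ± 0.24. The marker median lay 1.00, 1.82 and 1.69 above the control mean in prx-5 RNAi replicates 1, 2 and 3, where vha-6 lay 1.47, 2.77 and 2.33 above it.

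Relative to the median of the intestine markers in the same library, vha-6 was also higher. That log2 ratio was 1.51, 1.83 and 1.58 in prx-5 RNAi replicates 1, 2 and 3, against 1.11, 0.84 and 0.82 in control replicates 1, 2 and 3. The difference of 0.72 had a two-sided exact permutation p of 0.1, the smallest possible, and it ranged from 0.62 to 0.81 over the 6 comparisons that left out 1 library. This ratio was added after the values had been seen.

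**Figure D4:**
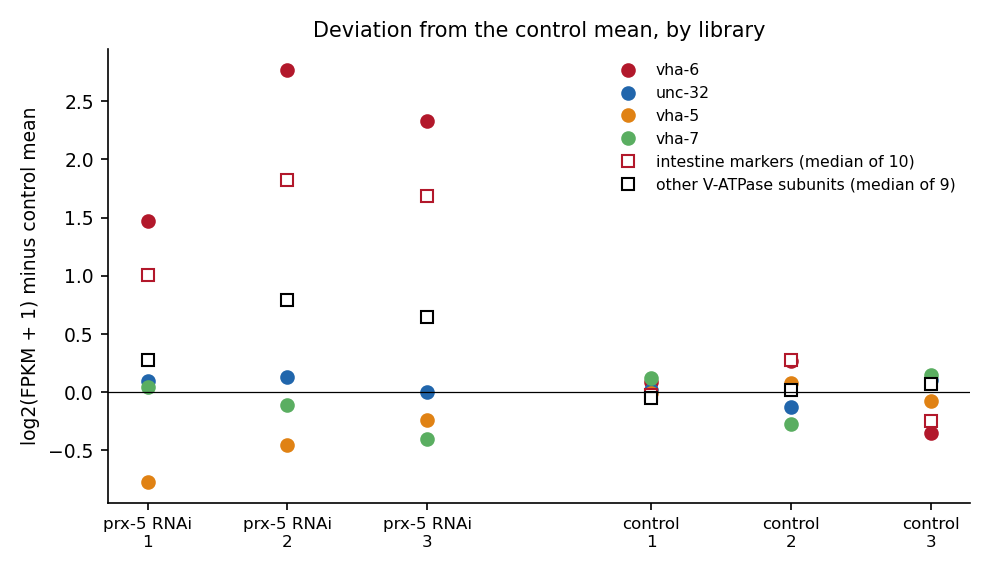
Deviation of log2(FPKM + 1) from the control mean in each library, for the 4 a subunit genes (circles) and for the medians of 10 intestine markers and 9 other V-ATPase subunits (squares), with prx-5 RNAi libraries on the left. In all 3 prx-5 RNAi libraries vha-6 lies highest, the intestine markers next and the other subunits after them, while vha-5 is below the control mean.

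For vha-5, the tissues in question are the excretory cell and the epidermis. Of 6 tested excretory cell markers, limma called 0. An unadjusted p under 0.05 was found in 2 as higher (17.5% of all tested loci) and 1 as lower (4.44%). The authors' deposited table called the same numbers of this list, 2 higher (9.52% of all tested loci) and 1 lower (4.85%). The median log2 fold change was 0.34, and the summed level was between 82.1 and 128.7 FPKM in prx-5 RNAi libraries and between 81.8 and 88.3 FPKM in control libraries. That sum includes nhr-31, also counted above among the transcription factors, at 17.6, 59.9 and 44.2 FPKM in prx-5 RNAi replicates 1, 2 and 3. In control replicates 1, 2 and 3 nhr-31 had 11.7, 12.9 and 11.6 FPKM, and no other marker of this list spanned as many FPKM. The markers with the smallest p-values were nhr-31 and exc-5, a gene needed for canal shape (log2 fold change 0.86 ± 0.24). The canal water channel gene aqp-8, which was singled out with its values known, had 16.3, 23.2 and 22.8 FPKM in prx-5 RNAi replicates 1, 2 and 3, against 29.3, 32.5 and 32.2 FPKM in control replicates 1, 2 and 3. Every prx-5 RNAi library was below every control library for aqp-8, as for vha-5 and in 5.80% of all tested loci. Its log2 fold change was -0.59 ± 0.18 (limma adjusted p = 0.0986). Of the other markers, exc-4 was also lower (-0.22), whereas nhr-31 (1.51), exc-5 (0.86), exc-9 (0.64) and sulp-4 (0.04) had positive log2 fold changes. A second locus of aqp-8, not counted in the list, was called lower (-0.86 ± 0.21, limma adjusted p = 0.0494), as were 1.20% of all tested loci. It had 3.89, 5.16 and 6.55 FPKM in prx-5 RNAi libraries, against 10.2, 10.3 and 9.73 FPKM in control libraries.

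Of 9 epidermis markers, limma called 1 lower and 0 higher, where it called 1.20% of all tested loci lower and 7.49% higher. Their median log2 fold change was 0.44. An unadjusted p under 0.05 was found in 2 as higher (17.5% of all tested loci) and 1 as lower (4.44%). The authors' deposited table called 1 higher (9.52%) and 1 lower (4.85%). The gene called lower by limma was col-19, an adult cuticle collagen, at 294 ± 54.1 FPKM in prx-5 RNAi worms and 997 ± 35.9 FPKM in control worms (log2 fold change -1.77 ± 0.19, limma adjusted p = 0.00816). It held most of the summed level of this list, which was between 355 and 408 FPKM in prx-5 RNAi libraries and between 1038 and 1078 FPKM in control libraries. The next smallest p belonged to the hedgehog-related gene wrt-2 (1.17 ± 0.38, adjusted p = 0.116). The part of these tissues in the level of vha-5 was not tested.

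For unc-32, the markers of neurons are given. Of 15 tested, limma called 1 higher and 0 lower, where it called 7.49% of all tested loci higher. An unadjusted p under 0.05 was found in 3 as higher (17.5% of all tested loci), and the authors' deposited table called 1 higher (9.52%). The median log2 fold change was 0.46. Their summed level was between 438 and 563 FPKM in prx-5 RNAi libraries and between 364 and 451 FPKM in control libraries. The highest level in this list was that of snb-1, at 226 ± 18.2 FPKM in prx-5 RNAi worms and 206 ± 33.6 FPKM in control worms (log2 fold change 0.14 ± 0.17). The gene called by limma was the syntaxin gene unc-64 (0.78 ± 0.18, limma adjusted p = 0.0421), and unc-18, which binds syntaxin, followed at 0.46 ± 0.17. A second locus of unc-64 stood at 0.18 ± 0.34 (limma adjusted p = 0.789). For vha-7, limma called 0 of 7 somatic gonad and uterus markers. Of these, 1 had an unadjusted p under 0.05, as lower (4.44% of all tested loci), and the authors' deposited table called 0. Their median was -0.05 and their summed level was between 250.1 and 264 FPKM in prx-5 RNAi libraries and between 241 and 308 FPKM in control libraries. The gap junction gene inx-9 (-0.48 ± 0.16) and the transcription factor gene egl-13 (0.55 ± 0.32) had the smallest p-values.

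Limma called 0 of 6 muscle, 0 of 6 germline, 0 of 4 sperm and 0 of 9 oocyte markers. An unadjusted p under 0.05 was found in 4, 0, 0 and 0 of them, all lower, as in 4.44% of all tested loci. The authors' deposited table called 4, 1, 0 and 0, all lower, where it called 4.85% of all tested loci lower. The median log2 fold changes of the muscle, germline, sperm and oocyte lists were -0.89, -0.28, -0.53 and -0.17. The muscle median includes unc-89, whose only kept row is short (chromosome I, 4091250 to 4091466) and low, at 0 to 8.06 FPKM. The sperm markers were low too, with a summed level between 6.84 and 13.6 FPKM in prx-5 RNAi libraries and between 7.98 and 28.3 FPKM in control libraries. The examples with the smallest p-values were the muscle genes unc-27 (-1.10 ± 0.27) and unc-54 (-0.67 ± 0.18), and the germline genes glh-1 (-0.64 ± 0.34) and him-3 (-0.28 ± 0.23). In the sperm list they were spe-41 (0.34 ± 0.21) and spe-11 (-0.59 ± 0.40), and in the oocyte list cbd-1 and egg-1 (-0.28 ± 0.23 each). No tested marker of any tissue was at 0 in all libraries of a group.

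The 4 genes also differed in which loci followed them across the 6 libraries. Likeness was the Pearson correlation of log2(FPKM + 1) over these 6 libraries, given as a description, since the libraries of a group share whatever sets them apart. The 5 loci most like vha-6 were gst-22, C06B8.2, ugt-17, F40F12.7 and arrd-7, with correlations between 0.9986 and 0.9995. All 5 were called higher, as were 7.49% of all tested loci. This is no separate result, since they were chosen for likeness to vha-6, which was itself called. For vha-6, 8.58% of 13124 loci had a correlation above 0.95, and for vha-7 this was 6.27%. It was 0.701% for unc-32 and 0.251% for vha-5.

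The loci most like vha-7 were B0001.4, B0524.6, eel-1, K11H3.8 and vps-16 (0.997 to 0.9985), and those most like unc-32 were imp-3, vps-35, lin-28, rsks-1 and trt-1 (0.992 to 0.998). Those most like vha-5 were F41E6.12, Y12A6A.1, pxn-1, C15F1.1 and mif-2 (0.984 to 0.991). None of these last 15 loci was called by limma, which is likewise no separate result, since they were chosen for likeness to genes that were not called. Among the 9 other V-ATPase subunits, only vha-15 (0.961) had a correlation above 0.95 with vha-6, as did 8.58% of all loci compared. The next highest was vha-8 at 0.947. The correlations of the 10 intestine markers with vha-6 lay between 0.9496 for ges-1 and 0.997 for nhx-2. The correlation of vha-18 was 0.960 with vha-7 and -0.674 with vha-6, and that of spe-5 was 0.934 with unc-32. Between vha-6 and vha-5 the correlation was -0.63, and between unc-32 and vha-7 it was 0.54.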

How the data were processed

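Per the file headers, the authors deposited FPKM for each library. Their comparison table, also deposited, gives for each locus the group FPKM, the log2 fold change, the score of their test, its p-value and its q-value. The submitters' processing notes name CASAVA, Bowtie, Cufflinks and Cuffdiff without versions. Settings, build, annotation and filters were not given in the sources used here. Rows were joined by position, and 913 with labels that differed between tables were left out, with 97 whose library values missed the authors' group value by more than 2% (or, for group values under 0.5 FPKM, by more than 2% of 0.5 FPKM). A total of 33 values marked as failed or too deep were set to missing. Loci averaging 1 FPKM or more were compared as log2(FPKM + 1), so folds of low genes are understated, with limma 3.58.1 in R 4.3.3 (variance trend, two-sided, Benjamini-Hochberg over 13347 loci), tested on simulated data. Within-library values were compared by exact permutation with scipy 1.17.1. A gene with several loci was given by the locus that overlaps it most, then by the higher mean. Among the genes named, 5 were those with the highest correlation with each member, and up to 2 per list had the smallest p. The members and lists were chosen with earlier results of these data known. The fit had no term for the replicate number.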

Additional observations from a re-analysis of the deposited data

How the results depend on the processing

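The log2 fold change of vha-6 kept its direction in all 16 alternatives (1.90 to 2.61) and passed in 12, falling short only without prx-5 replicate 2 (1.90), prx-5 replicate 3 (2.12), control replicate 1 (2.24) or control replicate 3 (2.01). That of vha-5 stayed below 0 (-0.62 to -0.35) and passed only with sample weights (-0.42). That of vha-7 stayed below 0 (-0.29 to -0.03), and that of unc-32 turned with median-ratio scaling (-0.015) and the authors' constants (-0.058). Leaving out 1 library gave 0.02 to 0.13 for unc-32, -0.61 to -0.35 for vha-5 and 1.90 to 2.55 for vha-6. The a subunit genes called were then 0 to 1 and the other V-ATPase subunits called 0 to 6, with a median of 0.40 to 0.72. Sample weights called 2 and 8 of these genes, with a median of 0.79. The authors' constants moved log2 fold changes over all loci by a median of -0.13, quantile normalization by -0.26 and median-ratio scaling by -0.09.

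The loci called over the whole table numbered 657 with median-ratio scaling (480 higher), 714 with the authors' constants (522 higher) and 770 with quantile normalization (531 higher). With sample weights they were 5217 (3206 higher, 2011 lower). Leaving out 1 library gave 78 to 1848 in all, 62 to 1460 higher and 16 to 388 lower. The cause of these changes was not tested. With the replicate number as a block, vha-6 stood at 2.19 (limma adjusted p = 0.00698), and 1253 loci were called. Correlations of the deviations of same-numbered libraries were 0.29, 0.23 and -0.12, and prx-5 replicate 3 followed control replicate 2 most (0.33), so the labels and these values do not pair the samples. The replicate block changed no call of a member. Shares and ratios within a library kept their direction without any 1 library, except the vha-7 share without vha-6, which ranged from -2.56 to 0.95 points (0.95 without prx-5 replicate 3 and 0.021 without control replicate 1). Each member has a single locus, so the alternative that sums its loci gave no value, and the planned promoter motifs were not analysed here. Depth is known only relative to control replicate 1, and 3 against 3 libraries cannot bring an exact permutation p below 0.1.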
